A study of Mus musculus with 4 samples.

Results

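The comparison described here is that of control cells cultured with RANKL and IL-3 against the same kind of cells cultured with RANKL alone, read gene by gene. Its members are all genes with at least 1 FPKM (a fragment count scaled to transcript length and library size) in either of the 2 bulk RNA sequencing libraries. They were 10630 of the 23920 genes in the deposited table, and 10601 once 29 genes whose symbols mark them as small RNAs were set aside. The cells were bone marrow-derived macrophage-like cells (BMMs) of *Stat5* fl/fl C57BL/6 mice, in which both *Stat5* genes are floxed but intact. That genotype is from the methods, and the sample titles call these cells wild-type. Both libraries were made after 24 h in 30 ng/mL M-CSF with 100 ng/mL RANKL, and 1 of them also with 1 ng/mL IL-3. For reference, levels are also given in the other libraries of the series, control cells given M-CSF alone and *Stat5* cKO cells given all 3 factors, at the same doses. The cKO cells came from littermates in which the interferon-inducible Mx1 promoter drives Cre, so that deletion is not restricted to osteoclasts or their precursors, and poly(I:C), the inducer, had been given to both genotypes. The labels give an age of 8 weeks, and the methods give 6 weeks for osteoclast cultures.

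Each condition has 1 library, so every ratio below describes a pair of libraries, has no replicate check and carries no test. Depth was estimated at 33.4 to 37 M fragments, which gives the log2 ratio of a gene a median 95% half-width of 0.10 from counting error alone. A pair of levels is given with RANKL first and with RANKL and IL-3 second, and a set of 4 goes on with M-CSF alone and the cKO library. All 4 libraries carry the cell type osteoclast and the sex male in their labels, while the title of the one with M-CSF alone calls its cells precursors of osteoclasts. *Xist*, the RNA of the inactive X chromosome, stood at 47 FPKM without and 31.9 FPKM with IL-3, 36.1 with M-CSF alone and 36.9 in the cKO library, and the Y-linked genes *Ddx3y*, *Eif2s3y*, *Kdm5d*, *Usp9y*, *Uty* and *Zfy1* were listed at 0 in all 4, which goes against the label of sex. Of 10 osteoclast markers, *Calcr*, the calcitonin receptor gene of mature osteoclasts, was listed at 0 in all 4 libraries and *Itgb3* and *Oscar* were at or below 1.38 FPKM. The summed level of the 10 markers was 1277 FPKM with RANKL, 141 FPKM with IL-3 and 45.9 FPKM with M-CSF alone. The marker levels thus fit the label osteoclast least in the libraries with M-CSF alone and with IL-3. The 7 macrophage markers, *Lyz2* foremost, summed to 8345 FPKM with RANKL and 17570 FPKM with IL-3.

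RANKL binds its receptor RANK on cells of the macrophage lineage, which signals through TRAF adaptors, NF-κB and AP-1 to the transcription factor NFATc1. NFATc1 turns on the genes with which osteoclasts fuse, attach to bone, acidify it and degrade its matrix. IL-3 is a cytokine of activated T cells, mast cells and basophils. It binds a private α chain (*Il3ra*) paired with the β chain (*Csf2rb*) shared with GM-CSF and IL-5, and the kinase JAK2 on that chain activates STAT5, which binds DNA at palindromes of TTC and GAA. In myeloid precursors IL-3 is known for supporting survival, growth and maturation, and it is known to inhibit osteoclast formation.

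The promoters of 3 genes are shown because these genes stand for the programmes that were higher with IL-3: *Cish* for cytokine feedback, *Fcgr1* for macrophage identity and *Irf8* for the factors that restrain osteoclast formation. They were picked after their values were seen, among genes whose promoter is in the reference table and holds the motif, so that all 3 hold it says nothing about these programmes, and *Osm*, *Id1*, *Ccl7* and *Arg1* have no entry there. The sequences are RefSeq promoters of GRCm38.p6, each on the strand of its gene, with every TTCNNNGAA in capitals. The *Cish* window lies at chr9:107296559-107296688 on the plus strand and ends 30 bases after the transcription start, that of *Fcgr1* at chr3:96293970-96294109 on the minus strand, and that of *Irf8* at chr8:120736158-120736357 on the plus strand.
Cish: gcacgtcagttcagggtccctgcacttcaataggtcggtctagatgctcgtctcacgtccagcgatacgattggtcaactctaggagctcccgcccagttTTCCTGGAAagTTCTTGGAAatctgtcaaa
Fcgr1: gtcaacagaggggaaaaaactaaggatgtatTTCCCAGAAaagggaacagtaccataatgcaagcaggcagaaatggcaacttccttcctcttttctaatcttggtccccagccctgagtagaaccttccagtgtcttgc
Irf8: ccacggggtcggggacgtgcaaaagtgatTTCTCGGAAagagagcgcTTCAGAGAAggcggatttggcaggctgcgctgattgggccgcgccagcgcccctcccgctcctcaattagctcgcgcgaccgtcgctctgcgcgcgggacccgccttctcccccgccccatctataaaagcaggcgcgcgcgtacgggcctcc

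In *Cish* the motif began at bases 1 and 12 counted from the transcription start, in *Fcgr1* at base -109, and in *Irf8* at bases -171 and -153. From 250 bases before to 50 after the start, the motif, which is its own reverse complement in its fixed letters, was present in 9.55% of all 27025 promoters and in 8.17% of the 8602 promoters of genes measured here. It was present in 18 of the 130 promoters of the genes 4-fold or more above RANKL with IL-3 (13.8%), among them *Ccl17*, *Trem1*, *Serpinb2*, *Tlr1* and *Mgst1*. Of the 56 promoters of genes at least 4-fold lower it was present in 3 (5.36%), and at 2-fold the shares were 10.6% of 511 higher and 10.7% of 290 lower genes. A match of these letters is a description of the sequence and does not show that STAT5 binds there.

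With IL-3, 658 genes were at least 2-fold higher than with RANKL alone (6.21% of 10601) and 374 were at least 2-fold lower (3.53%), on the log2(FPKM + 1) scale on which all ratios here are given and which understates differences of low genes. At 4-fold the counts were 175 (1.65%) and 74 (0.698%). The median ratio of all genes was -0.16, and 6835 of the 10601 lay below 0. Ratios are given without rescaling. With libraries scaled to a common median, 810 genes were higher and 283 lower, so that the share of higher genes among those apart was 74.1% in place of 63.8%. The 2-fold line fell within a continuum, as 159 genes lay just inside it, at an absolute log2 ratio of 1 to 1.1, and 215 just outside, at 0.9 to 1. As these are bulk libraries, fewer cells of a type and less RNA per cell cannot be told apart.

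In the classes below, counts are over the members at 1 FPKM or more in either library, 1016 of the 1225 distinct genes that the table holds of all classes. Of these 58 reached 1 FPKM with IL-3 only and 16 without it only. A gene that enters through 1 library has to differ, so a median over the measured members tends to lie farther from 0. Where a printed class median is more than 1.5 times that over all listed members, both are given. Some classes below are described by counts without a median, and several of them had such a gap too. Medians over measured and over all listed members were 2.02 and 0.59 for matrix metalloproteinases and 0.96 and 0.29 for C-type lectins. For coagulation and fibrinolysis genes they were 0.77 and 0.43, and for other cytokine receptors 0.53 and 0.30. The gap was also this large for scavenger receptors, eicosanoid synthesis and the NADPH oxidase group.

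The 658 higher genes were chosen by their levels in the RANKL and IL-3 libraries, so the difference in their share of the RNA between these is fixed by the choice. They held 5.67% of all FPKM in the RANKL library and 17.0% in the IL-3 library, against 16.7% with M-CSF alone and 8.53% in the cKO library. The 374 lower genes went from 2.50% with RANKL to 0.726% with IL-3, and they held 0.718% with M-CSF alone. A few abundant genes made up much of the share of the higher ones, as 10 of them, the lysozyme gene *Lyz2*, the actin-sequestering thymosin *Tmsb4x*, the chemokine genes *Ccl2*, *Ccl7*, *Ccl6* and *Pf4*, the γ-actin gene *Actg1*, the elastase gene *Mmp12* and the lysosomal genes *Ctsd* and *Psap*, went together from 2.79% to 8.11% of all FPKM. The plot of levels with and without IL-3 shows the few chemokines far above the diagonal and the osteoclast genes below it.

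**Figure D1:**
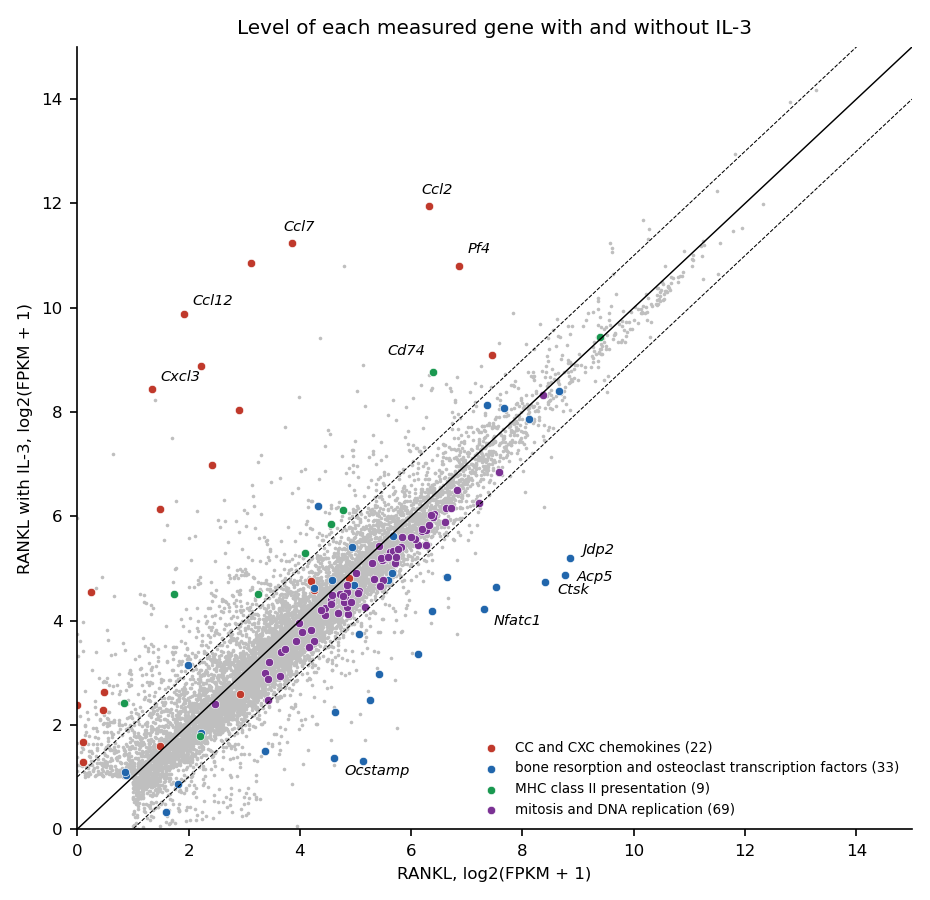
Level of each of 10601 genes in the RANKL library (horizontal) and in the library with RANKL and IL-3 (vertical), both as log2(FPKM + 1). The solid line marks equal levels and the dashed lines a 2-fold difference. Coloured points are the members of 4 groups of classes, with the number of measured genes in brackets, and the chemokine *Ccl12* stands at 2.76 FPKM with RANKL and 944 FPKM with IL-3.

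The 20 highest ratios among genes at 5 FPKM or more ran from 7.97 for *Ccl12* to 3.99 for the oligopeptide transporter gene *Slc15a3*. Chemokines filled 10 of these places: *Ccl12*, *Ccl6*, *Ccl7*, *Cxcl3*, *Ccl4*, *Ccl2*, *Ccl3*, *Cxcl2*, *Ppbp* and *Ccl17*. The others were *Arg1* (arginase), *Mgl2* and *Clec4n* (C-type lectins), the proteases *Mmp12* and *Mmp13*, *Ch25h* (cholesterol 25-hydroxylase), *Bcl2a1d* and *Bcl2a1b* (survival factors) and *Cd300lf* (an inhibitory receptor). The *Bcl2a1* genes are near-identical copies, and how reads were shared among them is uncertain.

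The 20 lowest ratios ran from -3.89 to -2.78. Among them 9 were members of the osteoclast classes described below: *Acp5*, *Slc9b2*, *Ctsk*, *Jdp2*, *Ocstamp*, *Prdm1*, *Nfatc1*, *Mmp9* and *Src*. The others were in no class, which does not set them apart from osteoclast genes. The rest included *Scin*, an actin-severing protein (34.9 FPKM with RANKL and 1.47 with IL-3), *Sdc1*, a heparan sulfate proteoglycan (113 and 12.4), *Gfra2*, a receptor of neurturin (35 and 2.26), *Slc6a4*, the serotonin transporter (13.6 and 0.815), *Gja1*, the gap junction protein connexin 43 (32.8 and 3.59), *Mycl*, a MYC family factor (22.4 and 2.26), and *Vegfc*, a lymphatic growth factor (15.6 and 1.38). *Eif3j1*, the lowest, was at 14.4 FPKM with RANKL, 0.0361 with IL-3, 0.0428 with M-CSF and 0.0357 in the cKO library, and it has a near-identical copy, so its value is uncertain. In the plot of these 40 genes in all 4 libraries the cKO library lay between the RANKL and the IL-3 libraries except for *Ccl17*, *Bcl2a1b* and *Eif3j1*. The 40 were chosen as the extremes between the RANKL and IL-3 libraries, so any other library tends to fall between them.

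**Figure D2:**
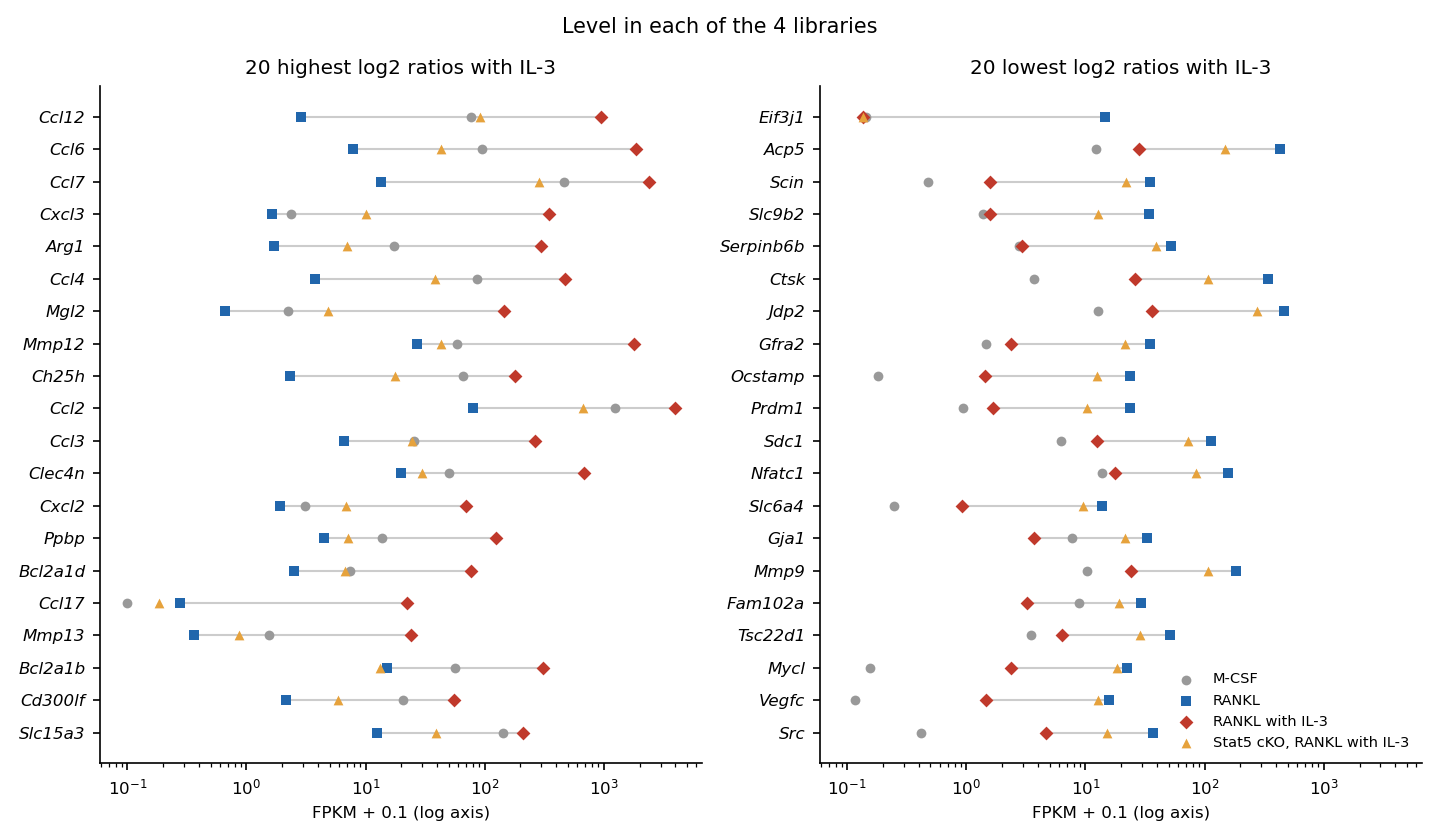
FPKM in each of the 4 libraries for the 20 genes with the highest (left) and the 20 with the lowest (right) log2 ratio with IL-3, on a log axis with 0.1 FPKM added, 1 point per library. Grey lines join the RANKL and IL-3 libraries. *Acp5* lies at 432 FPKM with RANKL, 28.2 FPKM with IL-3 and 12.2 FPKM with M-CSF alone.

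Genes of the IL-3 receptor were present in all libraries. *Il3ra* stood at 11.4 FPKM without and 13.2 FPKM with IL-3, 17 with M-CSF alone and 10.5 in the cKO library. *Csf2rb* stood at 64.2, 165, 32.2 and 41.3 FPKM, respectively, a log2 ratio of 1.35 with IL-3, although part of its reads may belong to its near-identical copy *Csf2rb2*, a β chain of the mouse that serves IL-3 only (47.3 with RANKL and 52.7 with IL-3). The GM-CSF receptor gene *Csf2ra* was at 108 and 179.9 FPKM. Of 10 measured STAT and JAK genes none was 2-fold apart (median 0.19). The most distant was *Stat2* (6.37 and 13.4 FPKM), while *Stat5a* stood at 10.8 and 12 FPKM, *Stat5b* at 7.8 and 8.86 FPKM and *Jak2* at 5.29 and 8.19 FPKM.

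Of 19 genes of cytokine feedback and known STAT5 targets, 10 were higher with IL-3 by 2-fold or more and 1 was lower (median 1.20). *Cish*, whose promoter is shown above, was close to 0 in every library but that with IL-3: 0.069 FPKM without and 14.6 FPKM with IL-3, 0.0729 with M-CSF alone and 0.158 in the cKO library. *Osm*, which encodes oncostatin M, stood at 3.27, 23.8, 5.09 and 2.77 FPKM, respectively. These 2 genes were thus above their M-CSF level with IL-3, and *Bcl2l1*, which encodes the survival factor BCL-XL, was near it (7.9 without and 82.5 with IL-3, 81.9 with M-CSF alone). The lower one was *Bcl6*, described below. *Myc* did not reach 2-fold, going from 124 FPKM with RANKL to 66.1 with IL-3, and *Mcl1* (131 and 104) and *Pim3* (13.7 and 8.72) were also lower by less than 2-fold.

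Other cytokine receptors were more often higher than lower. *Tnfrsf11a*, which encodes RANK itself, was the 1 of 20 measured receptors at least 2-fold lower, at 61.4 FPKM with RANKL and 19.9 with IL-3, against 35.8 with M-CSF alone. The 7 higher ones included *Il4ra* (6.64 and 30.9 FPKM), *Il21r* (3.5 and 24.9), the IL-33 receptor gene *Il1rl1* (0.561 and 5.69), *Il10ra* (4.93 and 15.4) and the TNF receptor gene *Tnfrsf1b* (12.5 and 34.3). *Csf1r*, the receptor of M-CSF, was at 227 and 365 FPKM.

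NF-κB genes stood lower on the whole: 18 of 21 lay below 0, against 6835 of all 10601 genes (median -0.59, which is -0.43 relative to the median of all genes). Of the 21, 3 were 2-fold lower and 1 was higher (4.76%, near the share among all genes). *Traf1* was at 112 FPKM without and 34.9 FPKM with IL-3, and at 2.02 with M-CSF alone, the apoptosis inhibitor gene *Birc3* at 67.3, 27.9 and 7.6, and *Nfkb2*, the precursor of p52, at 95.4, 46.4 and 15.8. All 3 with IL-3 therefore stood between the M-CSF and RANKL libraries. *Ikbke*, a kinase of interferon and NF-κB signalling, was the higher one (14.7 and 33.5).

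Immediate early factors went both ways, with 8 of 16 higher and 1 lower. *Fos*, the AP-1 subunit that osteoclast formation needs, was at 262 FPKM with RANKL and 86.8 with IL-3, and *Junb* at 179 and 97.9. In contrast *Atf3* (4.94 and 54.4), *Ier3* (8.87 and 64.6), *Egr2* (4.09 and 18) and *Egr1* (2.25 and 9.57) were higher. Genes of MAPK feedback were balanced, 2 of 13 being higher, 2 lower and 9 not 2-fold apart (median -0.24, above 0 with a minimum of 5 FPKM). *Dusp6*, which removes phosphate from ERK, was at 9.25 and 47.5 FPKM and *Dusp16* at 2.9 and 9.96, whereas *Dusp4* was at 33.3 and 13.8 and *Dusp2* at 4.59 and 1.32.

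Among 12 transcription factors of osteoclasts, 6 were at least 2-fold lower and 1 was higher (median -0.86). *Nfatc1* was at 157 FPKM without and 17.7 FPKM with IL-3, 13.6 with M-CSF alone and 84.8 in the cKO library. *Prdm1*, which encodes the repressor BLIMP1, stood at 23.5, 1.58, 0.838 and 10.2 FPKM, respectively, and *Jdp2*, an AP-1 partner, at 462, 35.8, 12.8 and 276. In all 3 the IL-3 library was far below the RANKL library and above the M-CSF library, least so for *Nfatc1*. *Fosl2* (82.2 and 17.3) and the mitochondrial coactivator gene *Ppargc1b* (9.3 and 1.82) were also lower. *Spi1*, which encodes PU.1, the factor of the whole lineage, differed little (403 and 337). The higher one was *Tfec*, a relative of MITF, at 19.1 FPKM with RANKL and 72.5 with IL-3, while *Tfe3* was at 29.5 and 41.8.

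The factors known to restrain osteoclast formation were the reverse, with 8 of 13 higher and 1 lower (median 1.17, and 0.75 over all listed). *Irf8* stood at 5.3 FPKM without and 38.2 FPKM with IL-3, 54.3 with M-CSF alone and 10.2 in the cKO library. *Id1* and *Id2*, inhibitors of helix-loop-helix factors, had the 2 highest ratios of the list, 3.79 and 3.16. *Cebpb* was at 42.7 and 169.7 FPKM and the galectin-3 gene *Lgals3* at 779.8 and 2152. Lower was *Bcl6*, a repressor of osteoclast genes, at 9.41 and 3.76 FPKM. The inositol phosphatase gene *Inpp5d* (SHIP1) and the tyrosine phosphatase gene *Ptpn6* (SHP-1) were not 2-fold apart (41.6 and 52.5, 141 and 137).

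Bone resorption genes held 10 lower members of 21 and 1 higher (median -0.94). *Ctsk*, the collagen-degrading cathepsin K, was at 338 FPKM without and 25.8 FPKM with IL-3, 3.6 with M-CSF alone and 107 in the cKO library. *Acp5*, the acid phosphatase TRAP, was at 432, 28.2, 12.2 and 149. *Src*, the kinase needed for the ruffled border, was at 37.1, 4.55, 0.319 and 15.2. Each was far below its RANKL level in the IL-3 library and still above its M-CSF level. Sodium-proton exchanger gene *Slc9b2* was at 34.1 and 1.48 FPKM. Genes of the same function that lysosomes of other cells use too were not 2-fold apart: *Tcirg1*, a proton pump subunit, was at 275 and 234, *Ostm1*, the partner of the chloride exchanger, at 18 and 23.6, and *Rab7* at 204 and 270.2. *Sort1*, which encodes the sorting receptor sortilin, was the higher one (2.97 and 7.82).

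Of 18 vacuolar ATPase genes 15 were not 2-fold apart (median -0.10, above 0 with libraries scaled to a common median), and the other 3 were alternative subunits of the membrane sector. *Atp6v0d2*, the d2 subunit of osteoclasts, stood at 98.5 FPKM without and 27.5 FPKM with IL-3, 2.38 with M-CSF alone and 34.1 in the cKO library. The general d1 subunit gene *Atp6v0d1* stood at 71, 147, 107 and 81. *Atp6v0a1*, the a1 subunit, stood at 7.83, 95.4, 62.6 and 17, a log2 ratio of 3.45. *Tcirg1*, which encodes the a3 subunit of osteoclasts, and the a2 subunit gene *Atp6v0a2* (14.4 and 13.2), named after its value was seen, were not 2-fold apart.

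Fusion and adhesion genes were divided. *Ocstamp* (23.5 and 1.35 FPKM) and *Dcstamp* (44 and 15.4), membrane proteins that fusion needs, were lower. *Sirpa*, a receptor of CD47, was higher (131 and 331), as was *Cd81* (40.3 and 97.9), and *Cd9* was close in both (395 and 426). Of 13 integrin genes 3 were higher and 2 lower. *Itgav*, the α chain of the vitronectin receptor, was at 68.3 FPKM without and 9.31 FPKM with IL-3, 27.3 with M-CSF alone and 35.7 in the cKO library, and *Itga4* was at 39.4, 9.71, 19.2 and 25.5, both with IL-3 below every other library. The leukocyte integrins were higher: *Itgax* (CD11c) stood at 10.2, 99.7, 7.78 and 9.95 FPKM, *Itgam* (CD11b) at 103 with RANKL and 351 with IL-3, and *Itgal* at 13.4 and 30.7. Podosome and actin regulators had 4 lower and 2 higher of 28 (7.14% higher, near the share among all genes; median -0.14, above 0 with libraries scaled to a common median). *Myo10*, a motor of filopodia (23.3 and 4.08), and the Rac activator *Dock5* (31.2 and 7.32) were lower, and *Plek*, the pleckstrin gene (30.9 and 173), and *Rhob* (30.1 and 154) were higher.

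Matrix metalloproteinases showed an exchange of members. *Mmp9* (182 FPKM with RANKL and 24 with IL-3) and the membrane-bound *Mmp14* (41.8 and 6.83), both of osteoclasts, were lower. Higher were 6 of the 9 genes at 1 FPKM or more, with *Mmp12*, the macrophage elastase, at 26.9 FPKM without and 1791 FPKM with IL-3, 59.1 with M-CSF alone and 43.1 in the cKO library. The neutrophil-type collagenase *Mmp8* stood at 8.9, 143, 20.9 and 8.42, and the inhibitor *Timp1* at 5.58, 28.1, 7.86 and 9.42. The 14 listed genes, and the 9 at 1 FPKM or more, include the inhibitors *Timp1*, which was among the 6 higher, and *Timp2* (23.8 and 33.8). The summed level of the 14 was 296 FPKM with RANKL and 2083 FPKM with IL-3. Without *Mmp12* it was 269.5 and 292, with both inhibitors still counted, so these sums are not those of proteases alone. Cathepsins other than *Ctsk* were higher or close, 6 of 28 lysosomal genes passing 2-fold, with *Ctsc* at 113 and 406, *Lgmn* (legumain) at 104 and 336, *Ctsh* at 16.3 and 56.7, and *Ctsd* at 1237 and 2915.

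Chemokines held the largest ratios of any class. Among CC chemokines 11 of 13 were at least 2-fold higher and none was lower (median 4.31, and 2.11 over all listed), and among CXC chemokines 6 of 9 were higher and none was lower (median 2.15, and 0.56 over all listed). The summed level of the CC list was 297 FPKM with RANKL, 10476 FPKM with IL-3, 2150 FPKM with M-CSF alone and 1312 FPKM in the cKO library. *Ccl2*, which recruits monocytes through CCR2, stood at 79.2, 3942, 1234 and 667 FPKM, respectively, *Ccl7*, of the same receptor, at 13.5, 2407, 461 and 287, and *Ccl6* at 7.72, 1866, 94.3 and 43. For these 3 the IL-3 library was above the M-CSF library as well. The neutrophil chemoattractants *Cxcl3* (1.54 with RANKL and 346 with IL-3), *Cxcl2* (1.8 and 69.9) and *Ppbp* (4.38 and 125) and the platelet factor 4 gene *Pf4* (115 and 1782) were higher too. Not 2-fold apart were *Ccl5* (6.62 and 4.99), *Cxcl16* (28.5 and 27.3), *Cxcl14* (18 and 23) and the interferon-induced *Cxcl10* (17.3 and 26).

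Many of these genes are neighbours. In the order of measured genes along GRCm38, 23 runs of at least 3 consecutive genes were all at least 2-fold higher, holding 81 genes, and 4 such runs holding 12 genes were lower. On chromosome 5, *Cxcl5*, *Ppbp*, *Pf4*, *Cxcl3*, *Cxcl1* and *Cxcl2* formed 1 run from 90759298 to 90905938. The measured gene before it, *Rassf6*, had a ratio of 0.71 and the one after it, *Mthfd2l*, 0.97. On chromosome 11, *Ccl2*, *Ccl7*, *Ccl12* and *Ccl8* lay from 82035577 to 82116799, with *Myo1d* (-0.94) before and *Zfp830* (-0.32) after them. *Ccl6*, *Ccl3*, *Ccl4*, *Wfdc17* and *Wfdc18* lay on the same chromosome from 83587886 to 83711360, and *Ccl9* (175 and 547 FPKM) was 1 measured gene further out, beside *Ccl5*. *Ccl3* and *Ccl4* overlap in the annotation, and *Ccl8* and *Wfdc18* were listed at 0 with RANKL. The metalloproteinase run on chromosome 9, *Mmp13*, *Mmp12*, *Mmp8* and *Mmp27* from 7272514 to 7581885, was followed by *Tmem123* (-0.33), *Birc2* (-0.90) and *Birc3* (-1.24), of which *Birc3* was 2-fold lower. Members of a cluster are paralogues, so their values are not independent of each other.

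**Figure D3:**
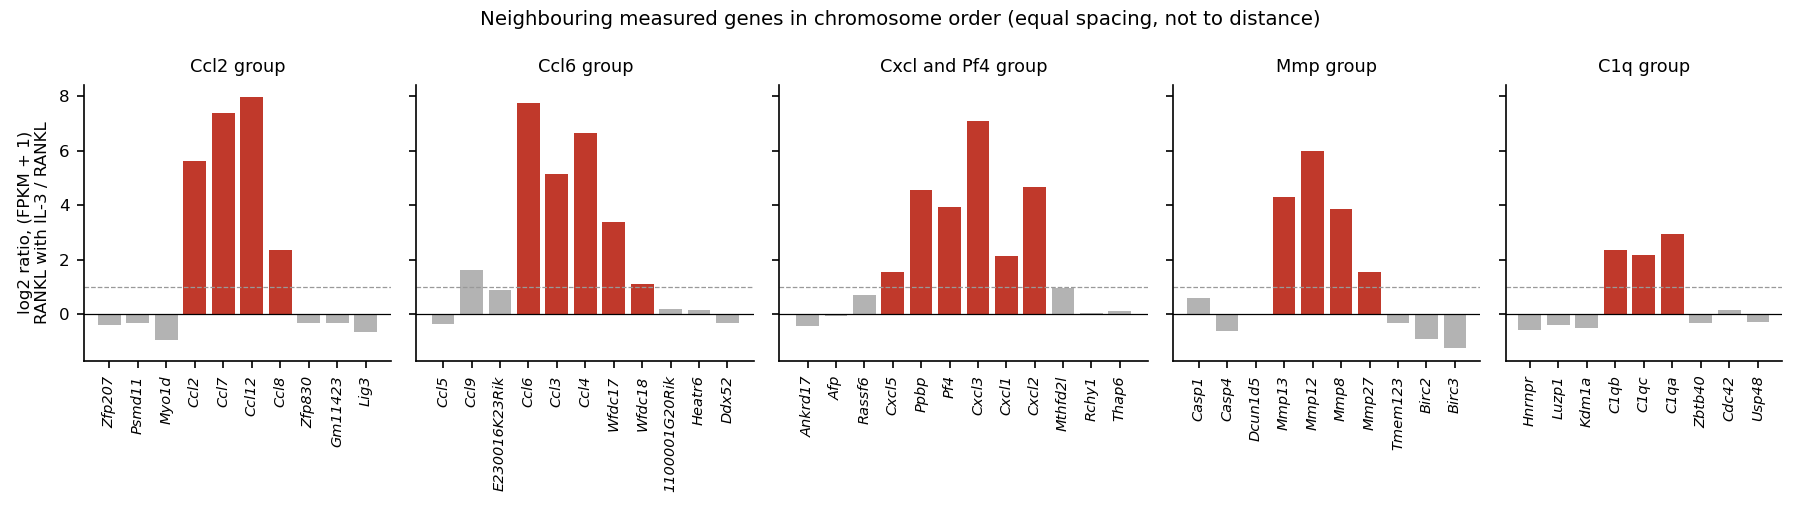
Log2 ratio, (FPKM + 1) of RANKL with IL-3 over RANKL, for consecutive measured genes in chromosome order at 5 places, with equal spacing in place of distance. Red bars form a run of genes at or above the dashed 2-fold line and grey bars are the 3 measured genes on each side. The run with *Ccl12*, at 7.97, is followed by *Zfp830* at -0.32.

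Receptors for chemoattractants were higher in 10 of 19 cases and lower in 1 (median 1.23). *Ccr2*, the receptor of *Ccl2* and *Ccl7*, stood at 8.59 FPKM without and 46.6 FPKM with IL-3, 49.2 with M-CSF alone and 7.66 in the cKO library. The chemerin receptor gene *Cmklr1* stood at 2.39, 30.6, 15.6 and 4.4. The leukotriene receptor gene *Ltb4r1* was at 1.57 and 17.8. *Cx3cr1*, the fractalkine receptor, was the lower one at 15.1, 3.26, 68 and 19.7 FPKM, and it was lowest in the IL-3 library.

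Macrophage identity genes were higher in 10 of 19 cases and lower in 1, again *Cx3cr1* (median 1.14). *Fcgr1* stood at 3.32 FPKM without and 48.3 FPKM with IL-3, 69 with M-CSF alone and 11.7 in the cKO library. *Mertk*, a receptor for apoptotic cells, stood at 1.42, 10.1, 10.8 and 2.31, and the factor *Maf* at 3.58, 27.6, 59.8 and 8.05. Lysozyme gene *Lyz2*, the most abundant of the list, stood at 7176, 15871, 19887 and 11241. In these 4 the IL-3 library was above RANKL and below M-CSF. *Cd68* (757 and 809.7) and *Aif1* (16 and 16.4) were close in both libraries.

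Genes of alternative activation, the state that IL-4 gives macrophages, were higher in 11 of 15 cases and lower in none (median 1.90, and 1.18 over all listed). *Arg1* was at 1.62 FPKM without and 298 FPKM with IL-3, 17.2 with M-CSF alone and 6.92 in the cKO library, *Mgl2* at 0.556, 145, 2.12 and 4.77, and *Retnla*, which encodes RELMα, stood at 0.035 without and 11.3 with IL-3 and at 0.0665 in the cKO library, and was listed at 0 with M-CSF alone. For these the IL-3 library was above all others. *Mrc1*, the mannose receptor, was at 15.2 and 115. Other genes of the state were not 2-fold apart, among them *Chil3* (39.2 and 67.7), *Folr2* (44.9 and 60.4), *Tgm2* (25.3 and 24.4) and the factor *Pparg* (9.71 and 6.55).

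Antigen presentation was divided between its 2 arms. Of 9 MHC class II genes 7 were higher and none lower (median 1.30), whereas of 18 MHC class I genes 1 was higher (5.56%, near the share among all genes) and none lower (median 0.11). *Cd74*, the invariant chain, stood at 83.4 FPKM without and 434 FPKM with IL-3, 130.01 with M-CSF alone and 94.9 in the cKO library, *H2-DMa*, which loads peptides, at 2.34, 21.8, 9.95 and 2.63, and *H2-Ab1* at 22.5, 56.8, 32.7 and 22.3. These 3 were highest with IL-3. The class I genes *H2-K1* (431 and 335), *H2-D1* (672 and 587) and *B2m* (1191 and 1229.5) were close. Costimulatory and checkpoint genes were higher in 6 of 15 cases, with *Cd86* at 2.43 and 10.3, *Icosl* at 0.922 and 7.14 and *Lgals9* (galectin-9) at 30.1 and 126, and *Cd40* (1.8 and 3.48) was not 2-fold apart.

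Of 19 listed dendritic cell genes 11 reached 1 FPKM, 6 of them with IL-3 only, and 8 were higher and none lower. Their median was 1.83, but 0.27 over all 19, and several markers of the lineage were near 0 in both libraries. *Zbtb46* stood at 0.201 FPKM with RANKL and 0.385 with IL-3, *Flt3* at 0.187 and 0.435, *Ccr7* at 0.22 and 0.395, *Clec9a* at 0.167 and 0.241 and *Cd209a* at 0.233 and 0.446. Those that were higher included *Itgax*, *Id2*, *Batf3* (0.432 and 6.08), *Cd1d1* (1.75 and 8.85), *Ccl17* (0.179 and 22.4) and *Ccl22* (0.370 and 3.88). Whether the cells moved toward dendritic cells was not tested. The 19 genes summed to 742 FPKM with RANKL and 992 FPKM with IL-3. A separate list of 11 dendritic cell markers, which includes *Cd74* and *H2-Ab1*, summed to 118 FPKM and 600 FPKM, of which *Cd74* alone gave 434 with IL-3. All 11 stood higher with IL-3, against 3766 of all 10601 genes, but several were near 0 in both libraries. At 1 FPKM or more were 3 of the 11 with RANKL and 5 with IL-3.

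Complement genes were higher in 8 of 13 cases and lower in none (median 1.61, and 0.43 over all listed), counting the complement receptors *Itgam* and *Itgax*. The 3 chains of C1q, the recognition protein of the classical pathway, lie together on chromosome 4 from 136880126 to 136898844. *C1qa* stood at 35 FPKM without and 276 FPKM with IL-3, 536 with M-CSF alone and 70.8 in the cKO library, *C1qb* at 71.3, 367, 686 and 57.5, and *C1qc* at 59.1, 272, 569 and 74.3. All 3 stayed below their M-CSF level. The anaphylatoxin receptor gene *C5ar1* was at 29.96 and 115, and *C3* at 13.9 and 17.5.

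Fc receptors were higher in 4 of 7 cases (median 1.56, and 0.82 over all listed). The activating *Fcgr3* was at 34.1 FPKM without and 474 FPKM with IL-3, 324 with M-CSF alone and 77 in the cKO library, and the inhibitory *Fcgr2b* at 29.6, 154, 36.1 and 39.8. The chain *Fcer1g*, through which the activating receptors signal, was at 452 and 802, and *Fcgr4* at 3.09 and 3.83. Of 25 receptors that signal through such ITAM chains, or that inhibit them, 12 were higher and none lower (median 0.98). These included the activating *Trem1* (1.35 and 19.2) and the inhibitory *Pilra* (7.29 and 66.1), *Cd200r1* (8.06 and 72.2) and *Cd300lf* (2.06 and 55.6). *Lilrb4* (227 and 948) has a near-identical copy and is uncertain. The adaptor *Tyrobp* (771 and 1047) and *Trem2* (164 and 288), which costimulate osteoclast formation, and *Pirb* (104 and 104) were not 2-fold apart.

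Pattern recognition genes stood higher in part. C-type lectins were higher in 7 of 16 cases, with *Clec4n*, which encodes the fungal receptor dectin-2, at 19.6 FPKM without and 683 FPKM with IL-3, 49.9 with M-CSF alone and 29.7 in the cKO library, and *Clec7a*, which encodes dectin-1, at 5.22, 78.8, 9.33 and 5.15. *Clec4e*, which encodes Mincle, was close (20.3 and 25). Toll-like receptor genes were higher in 8 of 20 cases, among them *Tlr1* (2.89 and 17.7), *Tlr4* (7.34 and 36.1), *Tlr7* (6.25 and 28.2) and *Tlr8* (2.63 and 15.3). The signalling proteins below them were not: *Myd88* was at 45.9 and 43.6, *Irak4* at 9 and 8.87 and *Irak1* at 32 and 24.3. Scavenger and uptake receptors were higher in 7 of 16 cases, with *Msr1* at 191 and 643, *Cd36* at 139.9 and 376 and the bridging ligand *Gas6* at 5.5 and 31.6.

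Interferon-stimulated genes mostly stayed within 2-fold. Of 31 measured, 1 was higher (3.23%, below the share among all genes) and none lower. Their median was 0.30, which is 0.45 relative to the median of all genes, and 24 lay above 0, against 3766 of all 10601 genes. The higher one was *Mx1* (0.864 and 4.24), and *Isg15* (17.5 and 16.1), *Oas1a* (36.4 and 47.4) and *Irf7* (27 and 36.8) were not 2-fold apart.

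Of 39 listed genes of secreted cytokines and growth factors 21 reached 1 FPKM, 5 of them with IL-3 only, and 13 were higher and none lower. The median was 1.17 over the 21 and 0.14 over all 39. *Csf1*, which encodes M-CSF, the factor present in all cultures, was at 0.407 FPKM without and 5.02 FPKM with IL-3, 0.389 with M-CSF alone and 0.583 in the cKO library. *Tnfsf14* (LIGHT) was at 1.49, 16.5, 1.94 and 3.16, and *Igf1* at 31.9, 107, 152 and 48.6. The first 2 were highest with IL-3 and the third with M-CSF. The osteopontin gene *Spp1* was at 1216 and 2548, *Tgfb1* at 70.7 and 150.4, and *Pdgfb* (49.1 and 25.6) was lower by less than 2-fold. IL-1 family genes were higher in 7 of 20 cases, with *Il1a* at 0.198 and 7.3, the receptor antagonist *Il1rn* at 36.7 and 139, the decoy receptor *Il1r2* at 0.333 and 3.24 and the inflammasome sensor *Nlrp3* at 7.22 and 29.6. *Gsdmd*, the pore-forming gasdermin, was lower (117 and 48.6).

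Coagulation and fibrinolysis genes were higher in 8 of 18 cases and lower in 3. The clotting factor genes *F7* (0.474 FPKM without and 11.3 FPKM with IL-3, 0.552 with M-CSF alone and 0.515 in the cKO library) and *F10* (1.29, 21.5, 1.28 and 0.725) are neighbours and were highest with IL-3. The urokinase gene *Plau* was at 109.5 and 301 and its receptor *Plaur* at 51.8 and 229. The inhibitor *Serpinb2* was higher (1.49 and 18.6), and the matrix protein *Thbs1* (47.6 and 18.6) was lower.

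Eicosanoid synthesis had 6 higher genes of 14, namely *Ptgs1* (5.28 and 58.8), *Tbxas1* (17.4 and 77.1), *Alox5* (4.53 and 21.2), *Hpgds* (4.34 and 15.9), *Pla2g15* (10.5 and 27.9) and *Alox5ap* (268 and 629.7). *Ptgs1*, *Tbxas1*, *Alox5* and *Hpgds* encode the enzymes of prostaglandin H, thromboxane, leukotrienes and prostaglandin D. *Ptges*, for prostaglandin E, was at 2.05 and 1.08. Within the NADPH oxidase group of 9, the phagocyte subunits *Ncf1* (44.6 and 109.96) and *Cybb* (54.2 and 109.9) and the proton channel *Hvcn1* (12.7 and 54.3) were higher, and *Nox1*, another catalytic subunit, was lower (7.49 and 0.505).

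Semaphorins, plexins and neuropilins had 4 higher and 4 lower members of 15 (median -0.06, -0.03 over all listed, above 0 with either rescaling of the libraries). *Nrp2* was at 333 FPKM without and 71 FPKM with IL-3, 64.7 with M-CSF alone and 205 in the cKO library, while its relative *Nrp1* was at 5.54, 25.5, 64.1 and 9.51. *Sema4d*, with which osteoclasts inhibit bone formation, was at 140.2, 38.3, 31.9 and 105. The 2 neuropilins thus stood in opposite order, *Nrp2* high with RANKL and *Nrp1* low with it. *Plxna4* (7.43 and 0.242) and *Sema7a* (4.85 and 0.253) were lower, and *Plxnc1* (1.98 and 10.4) and *Sema4a* (9.96 and 25) were higher.

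**Figure D4:**
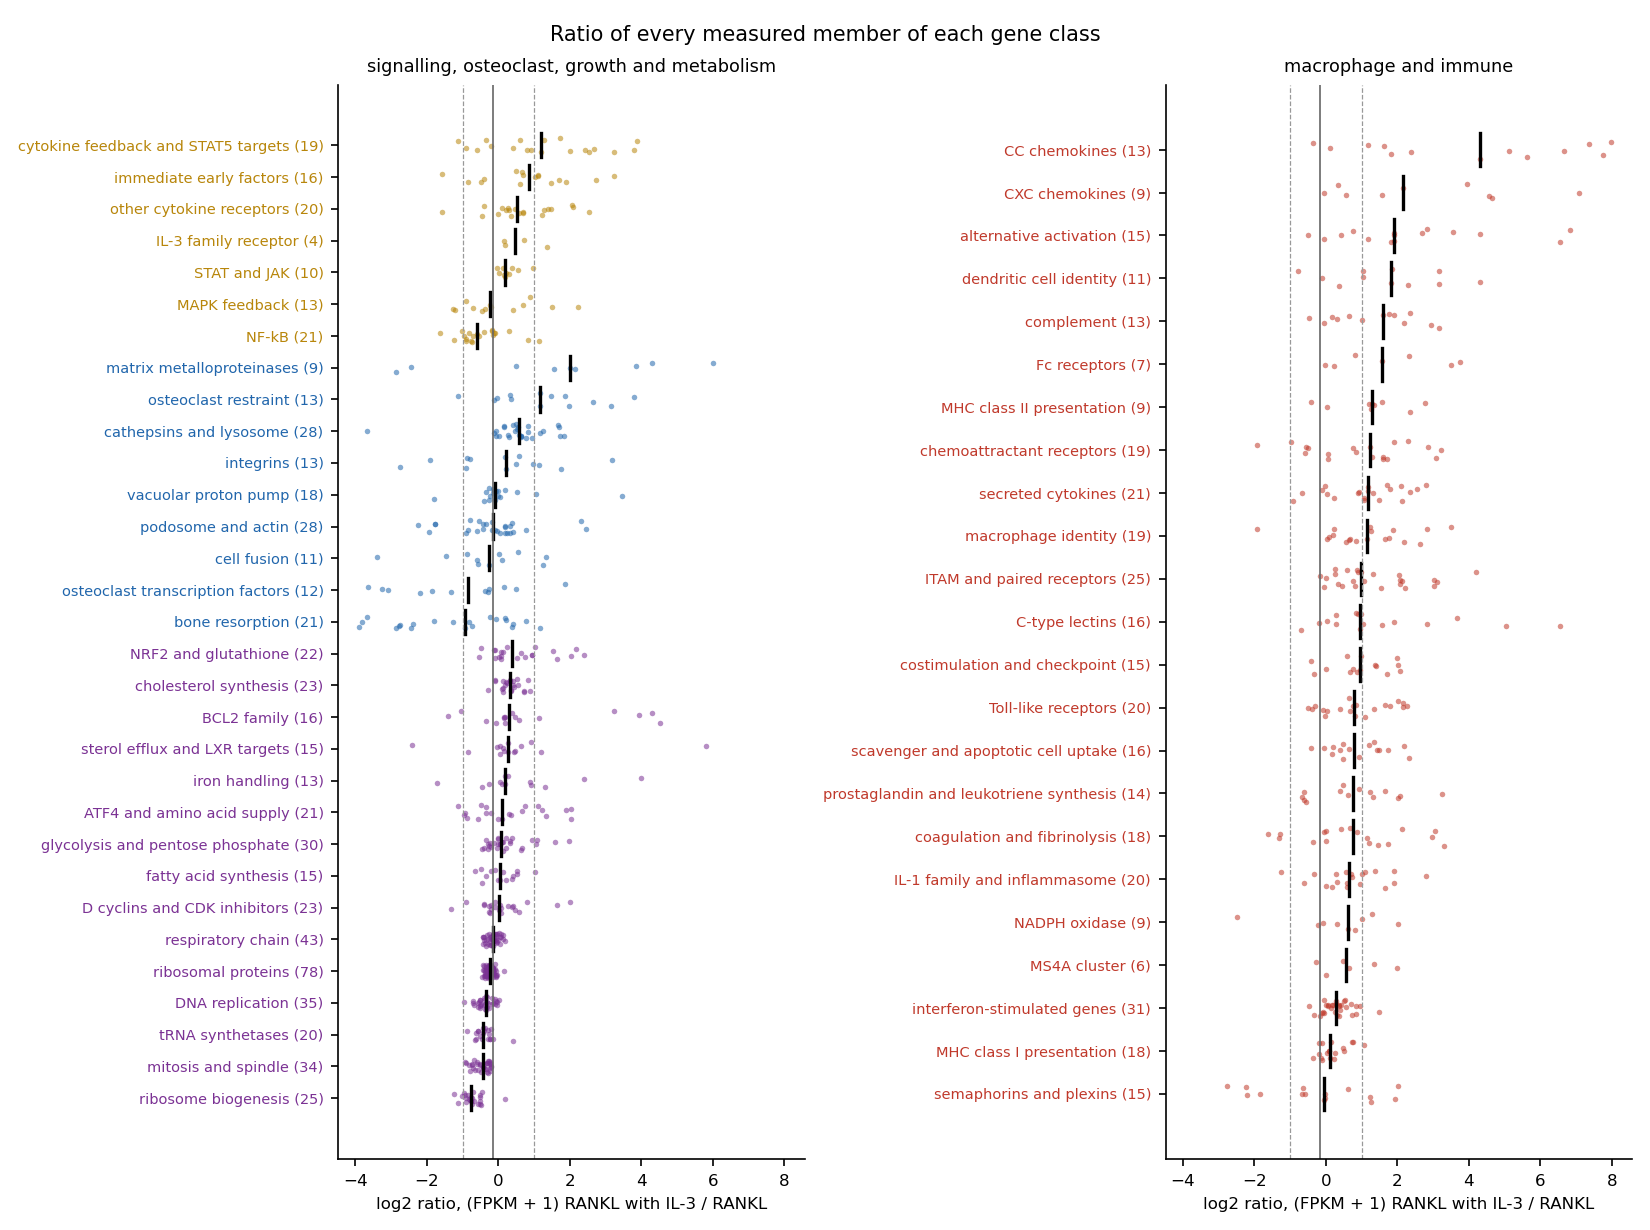
Log2 ratio, (FPKM + 1) of RANKL with IL-3 over RANKL, for every measured member of each class (points, with the number of members in brackets) and the class median (black bar). The grey line is the median of all 10601 genes, -0.16, and dashed lines mark a 2-fold difference. The CC chemokine median lies at 4.31 and that of bone resorption at -0.94, and ribosomal proteins lie in a narrow band at -0.24.

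Genes of the BCL2 family, which includes factors for and against survival, were higher in 5 of 16 cases and lower in 2. Of the 5, 3 were the near-identical copies of *Bcl2a1*, among which the sharing of reads is uncertain. Beside *Bcl2l1* and the copies of *Bcl2a1*, the anti-apoptotic *Bcl2* was at 0.977 and 3.38 FPKM. The lower ones were the pro-apoptotic *Bcl2l11*, which encodes BIM (15.4 and 6.91), and *Bok* (1.79 and 0.0423). *Bax* (179.8 and 233) and *Bak1* (78.9 and 75.9), the effectors, were not 2-fold apart.

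Mitosis and DNA replication genes lay close together, and none was 2-fold apart. All 34 mitosis genes stood below 0, from -0.95 to -0.19 with a median of -0.43, and so did 34 of 35 DNA replication genes (median -0.36). Relative to the median of all genes the class medians were -0.27 and -0.20, and 6835 of all 10601 genes lay below 0. *Mcm6*, a helicase subunit, was at 148 FPKM without and 75.2 FPKM with IL-3, 102 with M-CSF alone and 128 in the cKO library, and *Cdc20*, an activator of anaphase, at 76.4, 42.6, 51.5 and 76.2. Both were lowest with IL-3. Among cyclins and CDK inhibitors *Ccnd2* (0.536 and 5.11), which drives entry into the cycle, and *Cdkn1a* (75.8 and 239.7), which halts it, were the 2 of 23 that were higher (8.70%, near the share among all genes), and *Cdk6* (22.7 and 8.49) was the lower one.

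Ribosome biogenesis stood lowest among the growth classes, with 24 of 25 genes below 0, against 6835 of all 10601, and 3 at least 2-fold lower. The median was -0.76, which is -0.60 relative to the median of all genes. Nucleolin gene *Ncl* was at 258 FPKM without and 116 FPKM with IL-3, 92.5 with M-CSF alone and 234 in the cKO library, the pseudouridine synthase gene *Dkc1* at 70.2, 29.2, 20.9 and 62.6, and the RNA polymerase I subunit gene *Polr1b* at 29.8, 14.2, 10.5 and 26.4. These are known targets of MYC, and a link to *Myc* was not tested here. *Myc* itself had the same order, with 124 FPKM without and 66.1 FPKM with IL-3, 38.4 with M-CSF alone and 114 in the cKO library. The 20 tRNA synthetases (median -0.42) and the 78 ribosomal proteins (median -0.24) had no member 2-fold apart. Relative to the median of all genes these medians were -0.26 and -0.08. Ribosomal proteins summed to 89289 FPKM with RANKL and 75997 FPKM with IL-3. The 43 respiratory chain genes had a median of -0.15, which is 0.01 relative to all genes, and it changed sign with libraries scaled to a common median.

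Metabolic genes differed singly more than by class. Glycolysis and pentose phosphate genes were higher in 4 of 30 cases, among them the glucose transporter genes *Slc2a1* (29.6 and 63.3 FPKM) and *Slc2a6* (7.11 and 30.9) and the hexokinase gene *Hk3* (22.7 and 70.5), while *Gapdh* (2419 and 2495) and *Pkm* (1455 and 1433) were close. None of 23 cholesterol synthesis genes was 2-fold apart, but 20 lay above 0, against 3766 of all 10601 genes. Their median was 0.32, which is 0.48 relative to the median of all genes. Fatty acid synthesis held 1 higher gene of 15 (6.67%, near the share among all genes), *Scd2* (7.31 and 15.9). *Ch25h*, which makes 25-hydroxycholesterol, stood at 2.24 FPKM without and 180.3 FPKM with IL-3, 65.4 with M-CSF alone and 17.5 in the cKO library, and the phospholipid transfer protein gene *Pltp* at 101, 18.2, 31.2 and 66. These 2 were in opposite order.

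Iron handling genes were higher in 3 of 13 cases and lower in 1, and the other 9 were not 2-fold apart (median 0.19). The export and heme recycling genes *Slc40a1* (ferroportin; 1.94 and 45.6 FPKM), *Hmox1* (heme oxygenase 1; 78.7 and 416) and *Slc48a1* (a heme transporter; 61.2 and 153) were higher, and *Tfrc*, the transferrin receptor that imports iron, was lower (95.3 without and 28 with IL-3, 51.9 with M-CSF alone and 84.7 in the cKO library). With IL-3, *Tfrc* was below its level in each of the other libraries. The ferritin light chain gene *Ftl1* was at 9954 and 18524. Of 22 genes of the NRF2 and glutathione system 6 were higher and none lower, with *Gclm* at 58.6 and 183, *Prdx1* at 779 and 2253 and the cystine transporter gene *Slc7a11* at 1.56 and 9.49, but *Txnrd1* (311 and 214) and *Nqo1* (13 and 12.1) were not.

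Amino acid transporters exchanged members as well. *Slc1a5* (147 FPKM without and 67 FPKM with IL-3, 42.6 with M-CSF alone), a glutamine carrier, was lower, and *Slc7a1* (28.3 and 14.1) and *Slc7a5* (47.6 and 24.3) were lower by just under 2-fold. *Slc7a2*, an arginine carrier as *Slc7a1* is, was higher at 3.05, 15.6 and 1.17 FPKM, and so was *Slc7a8* (38.7 and 145). The 2 arginine carriers *Slc7a1* and *Slc7a2* thus stood in opposite order, and *Atf4*, the factor that drives many of these genes, was close in both libraries (119.6 and 118).

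Markers of other cell types were measured beside these results. The 4 defining monocyte markers summed to 41.7 FPKM with RANKL and 119 FPKM with IL-3, with *Ly6c2*, at 23.1 and 47 FPKM, just under 2-fold. Of a longer list of 15 monocyte genes 6 were higher and none lower (median 0.83), while their summed level was 3884 FPKM with RANKL and 2726 FPKM with IL-3. The calcium-binding *S100a4*, at 2937 and 1597, made up most of that sum. Granule and alarmin genes of neutrophils and their precursors were present in all 4 libraries, with *S100a8* at 275, 437, 513 and 293 FPKM and *Elane* at 16.7, 33.5, 23.3 and 13.6. The 7 neutrophil markers in the table summed to 733 FPKM with RANKL, 1077 with IL-3, 1285 with M-CSF alone and 766 in the cKO library. All 7 stood higher with IL-3 by less than 2-fold, against 3766 of all 10601 genes above 0, and their part in the results above was not tested. The 8 markers of mast cells, basophils and eosinophils, lineages that IL-3 supports, summed to 4.08 FPKM with RANKL and 5.16 FPKM with IL-3, with *Fcer1a* listed at 0 in every library and *Cpa3* and *Ms4a2* below 0.1 FPKM. The basophil protease gene *Mcpt8* was listed at 0 with RANKL and stood at 1.61 FPKM with IL-3. Going the other way, *Gata2* was at 2.15 FPKM with RANKL and 0.588 with IL-3, and *Prg2* at 1.34 and 1.19. Markers of T and NK cells, B cells, erythroid cells and megakaryocytes, and stromal, bone-forming and endothelial cells summed to at most 2.73 FPKM per list in both libraries. Heat shock genes *Hspa1a* (2.9 and 0.733) and *Hspa1b* (5.68 and 1.06), which also respond to handling and are near-identical copies, were lower with IL-3.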

How the data were processed

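RNA was sequenced on a HiSeq2000 system after TruSeq library preparation. Per the submitters' processing notes, the authors used TopHat2 2.0.13 for alignment, mm10 as the genome and Cufflinks 2.2.1 for the deposited FPKM values, 1 per RefSeq transcript. The table does not name its unit, which was read from the software and the values, and options are not stated in the sources used here. The sums were 507691 FPKM with RANKL and 544287 FPKM with IL-3.

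Transcripts were summed per gene ID, and log2 ratios were taken after 1 FPKM was added, for genes with at least 1 FPKM in either library. A gene was called higher or lower from a 2-fold difference on. No test, p-value or standard error was computed, as conditions are not replicated. Depth was estimated from the steps on which low FPKM values of single-transcript genes fall, of which 68.6% to 70.7% lay within 0.2 steps of a whole number (even spacing would give 40%). Approximate 95% intervals from that depth cover counting error only. Positions and promoters came from RefSeq on GRCm38.p6, the assembly also called mm10.

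Members were described in 63 gene classes, which share some members. The comparison and the classes were chosen with earlier results of these data known. Genes were named by a rule: the 20 highest and 20 lowest ratios at 5 FPKM or more, in each class up to 5 highest, 5 lowest and the 3 most abundant, the cell type markers, and genes named in the study. Not all of these are reported, a few being withheld here, and the genes of chromosomal runs and of the closing section were chosen after their values were seen. Alternatives were a pseudocount of 0.1 FPKM, scaling to a common median or upper quartile, another minimum (5 FPKM, or none), keeping small RNA genes, the most abundant transcript per gene, and thresholds of 1.5-fold and 4-fold. The ratio and count steps were tested on simulated data. Python 3.11.15, numpy 2.4.6, pandas 2.3.3 and matplotlib 3.10.9 were used.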

Additional observations from a re-analysis of the deposited data

How the results depend on the processing

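The counts of 658 higher and 374 lower genes were 849 and 559 with a pseudocount of 0.1 FPKM, 810 and 283 with libraries scaled to a common median, 743 and 327 with a common upper quartile, 544 and 294 with a minimum of 5 FPKM, 670 and 383 with small RNA genes kept, and 654 and 391 with the most abundant transcript per gene. At 1.5-fold they were 1297 and 1370, and at 4-fold 175 and 74. The class medians at or above the 2-fold line numbered 13 of 59, but 5 with no minimum, 24 at 1.5-fold and 3 at 4-fold, the line moving with the threshold. Medians at or below the lower line numbered 0, but 1 with a pseudocount of 0.1 FPKM, 2 with a minimum of 5 FPKM and 4 at 1.5-fold. With no minimum the median of the sex-linked genes went to 0, since 6 of the 8 were then counted at 0. In 8 classes, all with medians between -0.24 and 0.33, the sign changed under some setting. Podosome and actin, vacuolar proton pump, semaphorin and plexin, and respiratory chain medians changed sign with scaling to a common median. That scaling raised the median ratio of all genes from -0.16 to -0.01. In the other classes the cause was not tested. Small ratios, such as those of growth genes, are limited by the scaling, and genes near 1 FPKM by the counting error. No paired analysis was possible because each condition has 1 library and no test was run.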

Other observations

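The classes held 223 of the 658 higher and 54 of the 374 lower genes. Outside them, and picked after their values were seen, genes of the actin and tubulin cytoskeleton were among those higher with IL-3. *Actg1* stood at 1144 FPKM without and 3286 FPKM with IL-3, 2622 with M-CSF alone and 1504 in the cKO library, the actin-binding *Cotl1* at 152, 469.6, 558 and 215, the focal adhesion gene *Zyx* at 19.4, 104, 61 and 30.4, and *Tubb2a* at 29.997, 142, 145 and 51.8. *Actb* (2876 and 4827) was higher by less than 2-fold. Nuclear receptor genes *Rxra* (5.08 and 19.7), *Rara* (5.58 and 19) and *Ppard* (2.31 and 10.2) were higher, as were the kinase gene *Fam20c* (22.4 and 189.9), which phosphorylates secreted proteins, the podoplanin gene *Pdpn* (16.1 and 118) and the endocytic adaptor gene *Dab2* (50.2 and 298). A run of 5 ribonuclease genes on chromosome 14, from 51091077 to 51256112, was higher throughout, with *Rnase4* at 4.77 FPKM without and 59.6 FPKM with IL-3, 200.01 with M-CSF alone and 21.3 in the cKO library and the eosinophil-type *Ear11* at 0.452, 13.2, 1.35 and 0.161. *Rnase4* and its neighbour *Ang* overlap, and the *Ear* genes have near-identical copies, so these values are uncertain.

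Among the lower genes outside the classes were ligands and receptors better known from other tissues. *Il34*, the other ligand of the M-CSF receptor, stood at 8.76 FPKM without and 0.49 FPKM with IL-3 and at 4.74 in the cKO library, and was listed at 0 with M-CSF alone. *Csf1*, described above, had the opposite order. The caveolin gene *Cav1* stood at 63.5 without and 9.41 with IL-3, 3.85 with M-CSF alone and 36.5 in the cKO library. *Cd200*, the ligand of *Cd200r1*, stood at 6.96, 0.399, 0.0533 and 2.62, whereas *Cd200r1* itself stood at 8.06, 72.2, 33.3 and 12. *Rcan1*, a calcineurin inhibitor whose gene NFAT factors turn on, was at 80.4 with RANKL and 14.6 with IL-3, and the growth factor receptor genes *Fgfr1* (8.02 and 0.598) and *Met* (17.7 and 5.8) were lower too.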
